A study of Mus musculus with 8 samples.

Results

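Aminoacyl-tRNA synthetases and the scaffold genes of their complex were compared between mouse macrophages cultured with and without acetylated low-density lipoprotein (acLDL). Members were taken from the array's probe annotation by symbol alone. They are the genes named by a letter followed by ars (such as Vars or Lars2), Eprs, both subunits of the phenylalanine enzyme (Farsa, Farsb), Tarsl2, and the scaffold genes Aimp1, Aimp2 and Eef1e1. This gave 38 of the 19938 genes tested: 19 cytosolic synthetases, 16 mitochondrial synthetases, whose symbols end in 2, and 3 scaffold genes. Aars shared its probe set with Exosc6 in the annotation, so no value is given for it, and Dars was not analysed here.

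The cells came from C57BL/6J mice, 5 days after thioglycollate, an irritant broth, drew macrophages into the peritoneal cavity. The 4 unloaded arrays are of cells cultured in medium with serum and no agent, and the 4 acLDL arrays of cells given a chemically modified lipoprotein that enters through scavenger receptors and loads them with cholesterol. For acLDL the sample protocols state 20 µg/mL over 3 days and the series text 50 µg/mL over 2 days, so the exposure is not settled. Replicates are called independent and biological in the series text, but which mice fed which culture is not given, and the p-values measure the spread between these cultures. The age and sex of the mice are not given in the labels.

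A synthetase joins an amino acid to the tRNA that carries its codon's match, which is the step where the genetic code is read. Most amino acids have one nuclear gene for the cytosolic enzyme and another for the mitochondrial one, while Gars and Kars supply both compartments from a single gene. Several cytosolic enzymes sit in a multi-synthetase complex held by the products of Aimp1, Aimp2 and Eef1e1. Uncharged tRNA activates the kinase GCN2, and the transcription factor ATF4 then raises genes of amino acid supply, several synthetase genes among them.

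Markers of the labelled cell type were detected. All 12 macrophage markers lay above 6.13 log2 units, the 95th percentile of 1015 olfactory receptor genes, which served as a measure of background. Of all 19938 genes 11609 lay above it, so passing it does not by itself name the cell type. Of the 12 macrophage markers 8 rose, 1 fell and 3 did not pass with acLDL, or 66.7% higher against 12.9% of all genes. Their summed linear level was 24712 to 26657 in unloaded and 27806 to 28554 in acLDL arrays. Markers of other cells above that level were 2 of 6 for T cells, 0 of 5 for B cells, 1 of 7 for neutrophils, 2 of 8 for mast cells and eosinophils, 7 of 10 for fibroblasts and mesothelial cells and 3 of 6 for dendritic cells. Of these 42 genes, 1 rose and 7 fell, while 12.9% of all genes passed as higher and 10.5% as lower. Blk, Mmp8, Ly6g and Cma1 fell, but their means over 8 arrays lay below the background level. The largest change was a fall of 0.60 in Siglecf, a lectin of eosinophils and some macrophages. Among fibroblast markers, the collagen gene Col1a2 fell by 0.37, Dcn, a matrix proteoglycan, fell by 0.26 and Sparc, a matrix protein, rose by 0.30, sizes like those of the synthetases. Summed levels of the mast cell and eosinophil list were 548 to 590 in unloaded and 451 to 485 in acLDL arrays. Siglecf, at 7.97 in unloaded and 7.37 in acLDL arrays, had the largest value and so weighs most in this sum. Of the 8 genes of that list 6 lay below the background level, and 3 had a positive difference. The part of these shifts in the synthetase values was not tested, and a larger share of a cell type cannot be told apart from more RNA per cell. Each probe set has its own brightness, so the level of one gene is not set against that of another. Where a log2 ratio of 2 genes is given, only its shift between the groups can be read.

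More synthetase genes rose than fell with acLDL, and every rise was under 1.6-fold. Of the 38 members 14 rose, 2 fell and 22 did not pass an adjusted p of 0.05 (limma, Benjamini-Hochberg over all 19938 genes). The background for these counts was high, since 23.3% of all genes passed, 12.9% higher and 10.5% lower. Among the members 42.1% passed and 36.8% were higher. All genes include many below the olfactory background level, while every member lay above it. With only the 11609 genes above that level tested, 38.6% of them passed, 2609 higher and 1868 lower. In that setting 15 members rose and 3 fell. Shares of all genes, in this and the other paragraphs, are thus lower than the share of genes above background. The median log2 difference, acLDL minus unloaded, was 0.13 over the members, -0.00 over all genes and 0.03 over the genes above background. The acLDL arrays did not overlap the unloaded arrays in 19 of the 38 members, 16 of them higher and 3 lower, against 25.6% of all genes. All 38 members had a mean above the background level, as did 11609 of all 19938 genes.

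**Figure D1:**
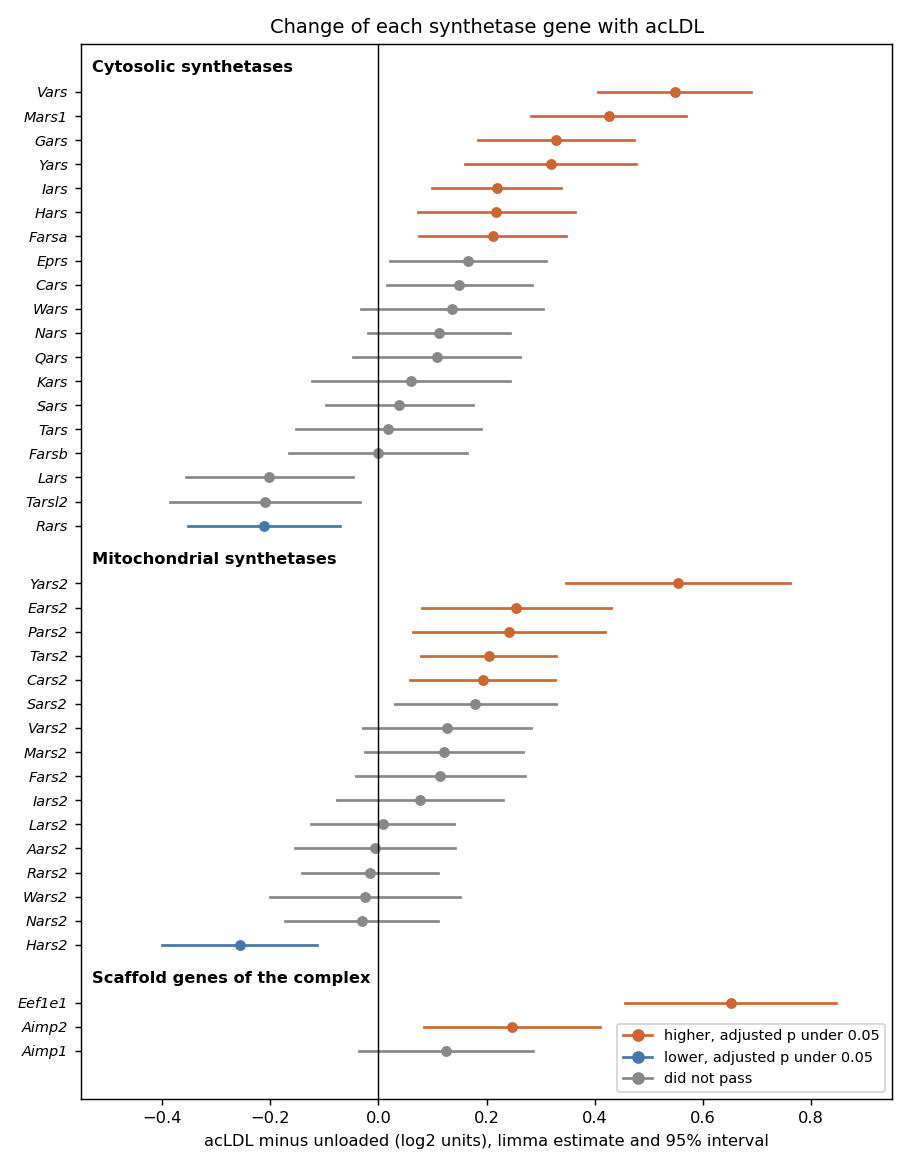
Log2 difference (acLDL minus unloaded) of each of the 38 genes, with points for the limma estimate and lines for the 95% interval, grouped into cytosolic, mitochondrial and scaffold genes and sorted within each. Orange marks the 14 genes that rose, blue the 2 that fell (Rars and Hars2) and grey the 22 that did not pass.

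In the cytosol 7 of 19 genes rose, 1 fell and 11 did not pass, with a median log2 difference of 0.14. The valine enzyme gene Vars changed most. Vars stood at 7.78, 7.71, 7.73 and 7.74 in unloaded arrays 1 to 4 and at 8.43, 8.24, 8.19 and 8.29 in acLDL arrays 1 to 4. The groups lay far apart, with the lowest acLDL array above the highest unloaded array by several times the unloaded spread. Vars was 1.46-fold higher (log2 difference 0.55 ± 0.07 SE, n = 4 arrays a group, limma adjusted p = 5.52e-05).

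Mars1, the cytosolic methionine enzyme that also charges the tRNA of cytosolic start codons, followed. Its levels were 8.52, 8.40, 8.31 and 8.40 in unloaded and 8.94, 8.80, 8.85 and 8.76 in acLDL arrays, with no overlap. Mars1 was 1.34-fold higher (0.43 ± 0.07 log2, SE, limma adjusted p = 0.000418). Gars, the glycine enzyme of both compartments, was at 9.74, 9.54, 9.59 and 9.64 in unloaded and 10.07, 9.91, 9.90 and 9.93 in acLDL arrays. All acLDL values of Gars were the higher ones, and array 1 was the highest in both groups. Gars was 1.26-fold higher (0.33 ± 0.07 log2, SE, limma adjusted p = 0.00291).

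Yars encodes the tyrosine enzyme. It stood at 8.15, 8.11, 8.002 and 8.02 in unloaded and 8.55, 8.32, 8.25 and 8.43 in acLDL arrays, again apart. Yars was 1.25-fold higher (0.32 ± 0.07 log2, SE, limma adjusted p = 0.00652). Vars, Mars1, Gars and Yars were the cytosolic genes that kept their call under all 18 alternative settings.

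Iars, the isoleucine enzyme, had the tightest replicates of the genes that rose. It was at 9.39, 9.36, 9.40 and 9.43 in unloaded and 9.59, 9.62, 9.63 and 9.62 in acLDL arrays, 1.16-fold higher (0.22 ± 0.06 log2, SE, limma adjusted p = 0.0118). Iars had 2 probe sets that did not match each other. The other one read 8.96 ± 0.12 in unloaded and 9.02 ± 0.11 in acLDL arrays (SD, n = 4), a log2 difference of 0.06, and the mean of both did not pass (0.14, adjusted p = 0.121).

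The histidine gene Hars and Farsa, the catalytic subunit of the phenylalanine enzyme, rose by similar amounts with weaker support. Hars was at 8.55, 8.41, 8.31 and 8.40 in unloaded and 8.56, 8.71, 8.61 and 8.67 in acLDL arrays, so the highest unloaded array nearly met the lowest acLDL array. Its difference was 0.22 ± 0.07 (log2, SE, limma adjusted p = 0.0309). The call on Hars was kept without unloaded array 1 or acLDL array 1 and lost without any 1 of the other 6 arrays (adjusted p up to 0.0916).

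Farsa was at 7.94, 7.78, 7.87 and 7.96 in unloaded and 8.04, 8.15, 8.07 and 8.12 in acLDL arrays, a difference of 0.21 ± 0.06 (log2, SE, limma adjusted p = 0.0275). Its call was lost without unloaded array 2 or 3 or acLDL array 2 or 4 (adjusted p 0.0508 to 0.0805). The second subunit of the same enzyme, Farsb, did not pass. Farsb was at 9.50, 9.40, 9.25 and 9.39 in unloaded and 9.23, 9.36, 9.43 and 9.51 in acLDL arrays, with overlapping groups and a 95% interval of -0.16 to 0.16 log2. The log2 ratio of Farsa to Farsb within an array was higher by 0.21 ± 0.08 with acLDL (SE, no test), at -1.62 to -1.38 in unloaded and -1.39 to -1.19 in acLDL arrays, and these ranges overlapped.

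Rars, the arginine enzyme of the complex, was the cytosolic gene that fell. It was at 10.63, 10.55, 10.43 and 10.55 in unloaded and 10.43, 10.33, 10.27 and 10.29 in acLDL arrays, where unloaded array 3 and acLDL array 1 almost touch. Its difference was -0.21 ± 0.07 (log2, SE, limma adjusted p = 0.0319). The call on Rars was kept without unloaded array 3 or acLDL array 1 and lost without any 1 of the other 6 arrays (adjusted p up to 0.0855). Lars and Tarsl2 had differences of the same size and did not pass. Lars, the leucine enzyme, was at 8.79, 8.65, 8.67 and 8.89 against 8.57, 8.59, 8.42 and 8.60, with the groups apart (-0.20 ± 0.07 log2, SE, limma adjusted p = 0.0589). It is the nearest gene outside the threshold and passed without unloaded array 2 (adjusted p = 0.0464) or 3. Over all 18 alternative settings Lars passed in 8, and Rars missed the threshold in 7. Tarsl2, a second threonine enzyme gene, was at 7.09, 6.84, 6.68 and 6.84 against 6.73, 6.70, 6.60 and 6.59, with overlap at unloaded array 3 (-0.21 ± 0.08 log2, SE, adjusted p = 0.0839). Without that array its adjusted p was 0.0261.

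Among the other 8 cytosolic genes, which did not pass, differences ran from 0.02 in Tars to 0.17 in Eprs. Eprs, which joins the glutamate and proline enzymes in one chain, was at 9.35, 9.32, 9.25 and 9.51 in unloaded and 9.54, 9.52, 9.57 and 9.48 in acLDL arrays. Unloaded array 4 alone reached into the acLDL range, and without it Eprs passed (adjusted p = 0.0347). Cars (cysteine) was at 9.15, 9.09, 9.04 and 9.23 against 9.26, 9.27, 9.33 and 9.25, and Nars (asparagine) had its lowest acLDL array at 11.28 just above its highest unloaded array at 11.26. Groups were apart in both, with differences of 0.15 ± 0.06 and 0.11 ± 0.06 (log2, SE). Wars, the tryptophan enzyme that interferon gamma induces, differed by 0.14 ± 0.08 with overlapping groups. Qars (glutamine), Kars (lysine), Sars (serine) and Tars (threonine) differed by 0.11, 0.06, 0.04 and 0.02 with overlapping groups, and their 95% intervals lay within -0.15 to 0.26.

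**Figure D2:**
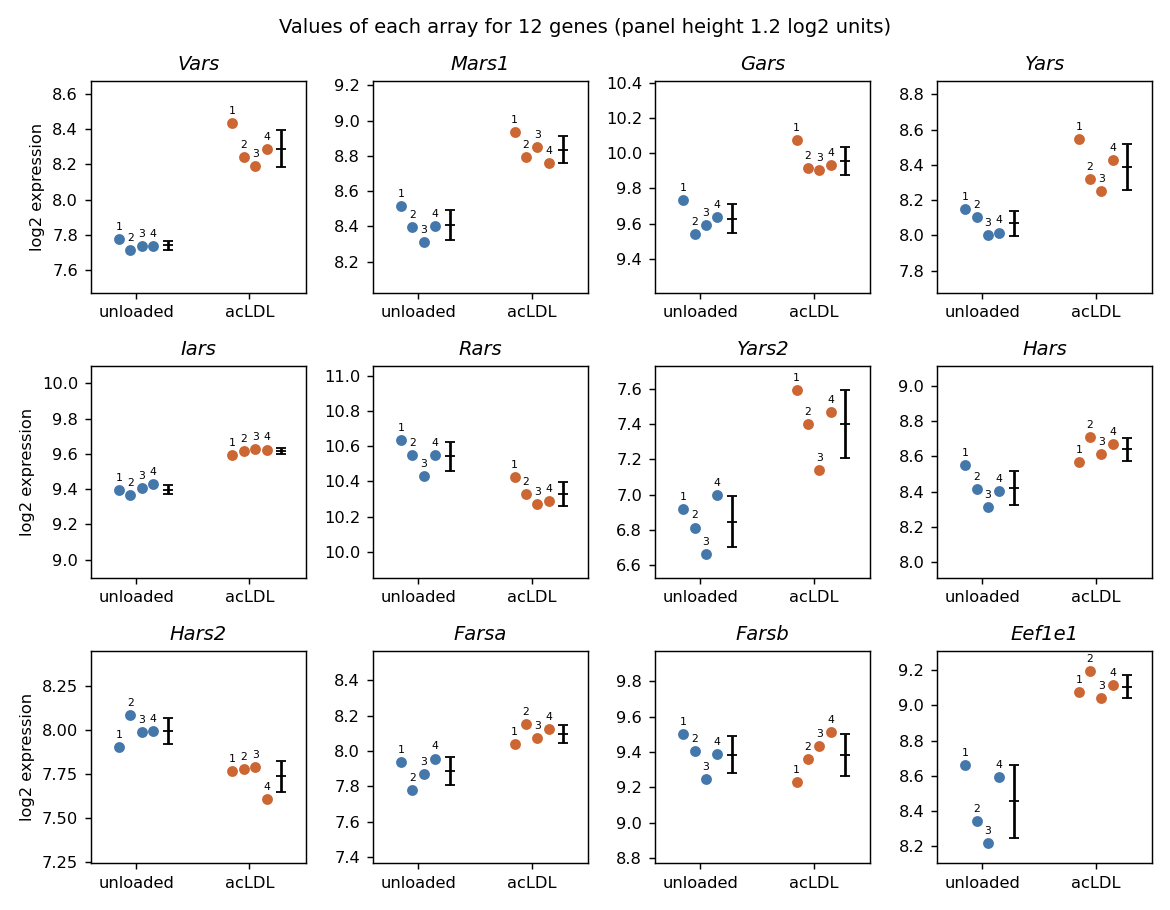
Log2 expression of 12 genes in each array (numbered points, unloaded in blue and acLDL in orange), with the mean and SD of the 4 arrays beside them; every panel spans the same height. Vars, Mars1, Gars, Yars, Iars, Yars2 and Eef1e1 have acLDL points clear above the unloaded ones, Hars and Farsa only just, Rars and Hars2 lie lower with acLDL, and Farsb overlaps.

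Promoter windows were read from RefSeq (GRCm38.p6, 250 bases before to 50 after a start site) to look for the composite element that C/EBP and ATF proteins bind in amino acid response genes. The letters searched were TGATGNAA, or TTNCATCA for the other strand. Windows were matched by symbol for 29 of the 38 members: 12 cytosolic, 14 mitochondrial and 3 scaffold genes. The motif occurred in 4 of the 12 cytosolic genes (33.3%), in 0 of the 14 mitochondrial genes and in 0 of the 3 scaffold genes, against 4.51% of all 27025 genes with a window. Of the 4 genes that hold it, Yars, Gars and Iars rose, and Tars stood at 8.43, 8.11, 8.09 and 8.28 in unloaded and 8.22, 8.29, 8.16 and 8.32 in acLDL arrays (0.02 ± 0.08 log2, SE). Among the 5 cytosolic genes with a window that rose, 3 hold it, and Mars1 and Farsa do not. No window was matched for Vars, Hars and Pars2, which rose, or for Rars and Hars2, which fell. Cars, Lars, Nars and Wars, which did not pass, had none either.

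The stretches with the motif are shown because they are the cytosolic windows that share it, from 100 bases before to 30 after the start site, with the motif in capitals. Its first base lies at position 4 in Yars (chr4:129189803-129189932, plus strand), -30 in Gars (chr6:55037901-55038030, plus strand), 8 in Iars (chr13:49682030-49682159, plus strand) and -15 in Tars (chr15:11399629-11399758, minus strand), counted from the start site as 1.
Yars: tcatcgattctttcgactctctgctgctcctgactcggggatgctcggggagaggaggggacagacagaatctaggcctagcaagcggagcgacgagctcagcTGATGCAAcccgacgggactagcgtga
Gars: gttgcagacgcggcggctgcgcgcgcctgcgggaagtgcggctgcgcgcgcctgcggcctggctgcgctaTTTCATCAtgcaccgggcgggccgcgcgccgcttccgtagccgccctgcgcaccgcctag
Iars: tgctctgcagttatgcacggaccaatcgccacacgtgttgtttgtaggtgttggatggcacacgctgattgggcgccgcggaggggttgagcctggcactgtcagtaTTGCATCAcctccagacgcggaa
Tars: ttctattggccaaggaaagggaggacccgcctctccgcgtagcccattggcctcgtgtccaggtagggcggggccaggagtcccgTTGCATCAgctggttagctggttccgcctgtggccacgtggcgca
In Yars the motif reads along the gene, and in Gars, Iars and Tars it reads on the opposite strand. A match of letters is a description and shows no binding.

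Of the mitochondrial synthetase genes 37.5% passed, against 42.1% of the cytosolic ones and 23.3% of all genes. The shares higher were 31.25%, 36.8% and 12.9%, and the difference between the compartments was not tested. Of 16 genes 5 rose, 1 fell and 10 did not pass, with a median log2 difference of 0.12. Yars2, the mitochondrial tyrosine enzyme, changed most. It was at 6.92, 6.81, 6.66 and 6.99 in unloaded and 7.59, 7.40, 7.14 and 7.47 in acLDL arrays, without overlap. Yars2 was 1.47-fold higher (0.55 ± 0.10 log2, SE, limma adjusted p = 0.000953), and it is the mitochondrial gene that kept its call under all 18 alternative settings.

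Ears2, which loads glutamate and starts the indirect route to mitochondrial glutaminyl-tRNA, was at 6.29, 6.31, 6.18 and 6.43 in unloaded and 6.72, 6.65, 6.41 and 6.45 in acLDL arrays. Unloaded array 4 lay above acLDL array 3, so the groups overlapped by a narrow margin (0.26 ± 0.08 log2, SE, limma adjusted p = 0.0364). Without unloaded array 1, 2 or 3 or acLDL array 1 or 2, Ears2 did not pass (adjusted p up to 0.119). Pars2, the proline enzyme, was at 5.87, 6.21, 6.25 and 6.06 against 6.28, 6.44, 6.29 and 6.35. It is the gene nearest inside the threshold (0.24 ± 0.08 log2, SE, limma adjusted p = 0.0492), its unloaded mean of 6.10 lay below the background level, and without unloaded array 1 or 4 or any 1 of the acLDL arrays it did not pass (adjusted p up to 0.134).

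Tars2, of threonine, was at 7.67, 7.77, 7.74 and 7.70 in unloaded and 7.89, 7.91, 7.96 and 7.91 in acLDL arrays. These are tight and separate groups (0.20 ± 0.06 log2, SE, limma adjusted p = 0.0204), though the call was lost without unloaded array 4 (0.0507) or acLDL array 3 (0.0589). Cars2, of cysteine, was at 7.14, 7.08, 7.16 and 7.14 against 7.36, 7.25, 7.26 and 7.42, also separate (0.19 ± 0.06 log2, SE, limma adjusted p = 0.0378). Its call was lost without unloaded array 1, 2 or 4 or acLDL array 1 or 4 (adjusted p 0.0524 to 0.119).

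Hars2, the mitochondrial histidine enzyme, fell. It was at 7.90, 8.08, 7.99 and 7.99 in unloaded and 7.77, 7.78, 7.79 and 7.61 in acLDL arrays, so all acLDL arrays lay below all unloaded ones. The difference was -0.26 ± 0.07 (log2, SE, limma adjusted p = 0.0130), and Hars2 passed whichever single array was left out. Hars and Hars2 are neighbours in the genome, the only neighbouring members here, and they went in opposite directions.

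The 10 mitochondrial genes that did not pass ran from -0.03 in Nars2 (asparagine) to 0.18 in Sars2 (serine). Sars2 had groups that met at 6.76 without overlapping (adjusted p = 0.0804). Aars2 (alanine), Lars2 (leucine), Rars2 (arginine) and Wars2 (tryptophan) differed by -0.01, 0.01, -0.02 and -0.02, with 95% intervals within -0.20 to 0.15. Vars2, Mars2, Fars2 and Iars2 differed by 0.13, 0.12, 0.11 and 0.08, with overlapping groups.

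Genes of the same amino acid in both compartments passed together in 2 of 17 pairs. Both were measured for 15 amino acids, as 17 gene pairs, since phenylalanine has both cytosolic subunit genes and threonine both cytosolic genes, while Eprs stands for glutamate and proline. The cytosolic gene alone passed in 5 pairs, the mitochondrial gene alone in 5, both in 2 and neither in 5. Tyrosine was the amino acid where both rose, and histidine the one where they went opposite ways. The log2 ratio of Hars to Hars2 within an array was 0.65, 0.33, 0.32 and 0.41 in unloaded and 0.80, 0.93, 0.82 and 1.06 in acLDL arrays, higher with acLDL by 0.47 ± 0.10 (SE).

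Valine was next. Vars2 was at 6.75, 6.60, 6.74 and 6.61 in unloaded and 6.88, 6.87, 6.83 and 6.63 in acLDL arrays, with overlap, and the log2 ratio of Vars to Vars2 was higher with acLDL by 0.42 ± 0.08 (SE) without overlap of the groups. For methionine, Mars2 was at 6.43, 6.59, 6.48 and 6.60 against 6.54, 6.62, 6.74 and 6.68, and the ratio of Mars1 to Mars2 was higher by 0.30 ± 0.10 with overlap. For threonine it was the mitochondrial gene that rose, and the log2 ratio of Tarsl2 to Tars2 was -0.58, -0.93, -1.06 and -0.85 in unloaded and -1.16, -1.21, -1.37 and -1.33 in acLDL arrays. Its shift was -0.41 ± 0.11 (SE), with groups apart.

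The ranges of these ratios separated in 4 of 17 pairs: histidine, valine and asparagine upward and Tarsl2 with Tars2 downward. For single genes, not ratios, the groups did not overlap in 25.6% of all genes, so this count is not unusual beside that share. No share over other gene pairs is given. The cytosolic gene had the larger signed difference in 7 pairs and the mitochondrial gene in 10. Isoleucine showed a smaller gap, with Iars2 at 8.66, 8.59, 8.39 and 8.55 against 8.71, 8.60, 8.54 and 8.64. Fars2 was at 7.64, 7.58, 7.47 and 7.76 against 7.81, 7.77, 7.67 and 7.66, and Rars2 at 7.16, 7.11, 7.11 and 7.11 against 7.06, 7.12, 7.07 and 7.18. In all of Iars2, Fars2 and Rars2 the groups overlapped. The ratios were not tested, because the members were chosen with results known.

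**Figure D3:**
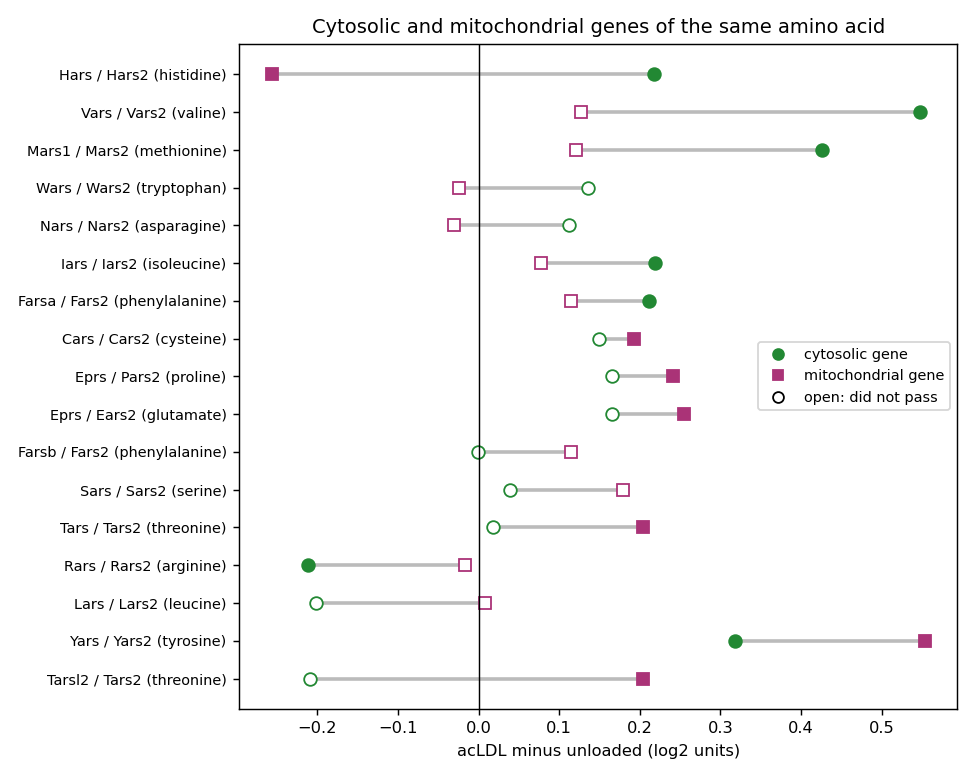
Log2 difference (acLDL minus unloaded) of the cytosolic gene (green circles) and the mitochondrial gene (purple squares) in 17 pairs of the same amino acid; filled symbols passed an adjusted p of 0.05. Hars and Hars2 lie on opposite sides of 0, Yars and Yars2 are both filled on the right, and in most other pairs 1 or neither symbol is filled.

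Eef1e1, a scaffold of the complex that is also called p18, had the largest change of all 38 genes. It was at 8.66, 8.34, 8.22 and 8.59 in unloaded and 9.08, 9.19, 9.04 and 9.12 in acLDL arrays. Unloaded arrays 1 and 4 were its higher ones, and even these lay well below the acLDL arrays. Eef1e1 was 1.57-fold higher (0.65 ± 0.09 log2, SE, limma adjusted p = 0.000179) and kept its call under all 18 alternative settings. Aimp2, or p38, was at 7.53, 7.45, 7.21 and 7.45 against 7.76, 7.61, 7.62 and 7.63, without overlap (0.25 ± 0.08 log2, SE, limma adjusted p = 0.0300). Its call was lost without unloaded array 3 or acLDL array 1 or 4 (adjusted p 0.0558 to 0.0960). Aimp1, or p43, was at 7.60, 7.49, 7.32 and 7.57 against 7.60, 7.66, 7.51 and 7.70 and did not pass.

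Of the 7 measured cytosolic synthetases that sit in the complex 2 rose, 1 fell and 4 did not pass, with a median log2 difference of 0.11. Of the 12 free cytosolic enzyme genes 5 rose, 0 fell and 7 did not pass, with a median of 0.14. The shares higher were 28.6% in the complex and 41.7% of the free genes, against 12.9% of all genes. Synthetases belong to 2 unrelated folds, class I and class II. Over both compartments 7 of 18 class I genes rose and 1 fell (median 0.13), and 5 of 16 class II genes rose and 1 fell (median 0.09). Eprs, which has a domain of each class, was left out of that count. By class, 38.9% of class I and 31.25% of class II genes were higher. Neither contrast, complex against free or class I against class II, was tested.

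Many cytosolic synthetase genes shared an order among the unloaded arrays. In 14 of 19 cytosolic genes both unloaded arrays 1 and 4 lay above both arrays 2 and 3, and in 0 they lay below. Over all 19938 genes 5764 had the first order and 5435 the second. The median deviation of the cytosolic genes from their own mean over 8 arrays was 0.01, -0.12, -0.16 and 0.01 in unloaded arrays 1 to 4 and 0.06, 0.07, 0.05 and 0.09 in acLDL arrays. Unloaded arrays 2 and 3 thus stood lowest, and arrays 1 and 4 lay between them and the acLDL arrays. In the mitochondrial genes the order was less even, with 5 of 16 in the first order and 3 in the second, and medians of -0.04, -0.06, -0.05 and -0.01 in unloaded and 0.10, 0.03, 0.01 and 0.06 in acLDL arrays.

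The size of the cytosolic shift moved with the unloaded arrays used. Its median was 0.21 without unloaded arrays 1 and 4 and 0.06 without arrays 2 and 3. Of the 38 members, 14 rose and 1 fell in the first case and 9 rose and 3 fell in the second. Both settings were chosen after seeing the data. Gene length moved with the arrays too. Across 11581 genes above background, the Spearman correlation of an array's deviation with genomic span was 0.23, -0.03, -0.05 and 0.21 in unloaded and -0.12, -0.05, -0.20 and -0.01 in acLDL arrays. The median span was 16.0 kb for the 14 members that rose, 17.8 kb for the 2 that fell, 38.5 kb for the 22 that did not pass and 17.7 kb for all genes tested. The correlation of span with the log2 difference over the 38 members was -0.40, a description of genes that share arrays. With the span trend subtracted from each array, a setting also chosen after seeing the data, 12 members rose and 3 fell. Over all genes the calls were 2210 higher and 3102 lower in that setting, against 2565 and 2085 without it. The part of the unloaded arrays and of span in the synthetase values was not tested.

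**Figure D4:**
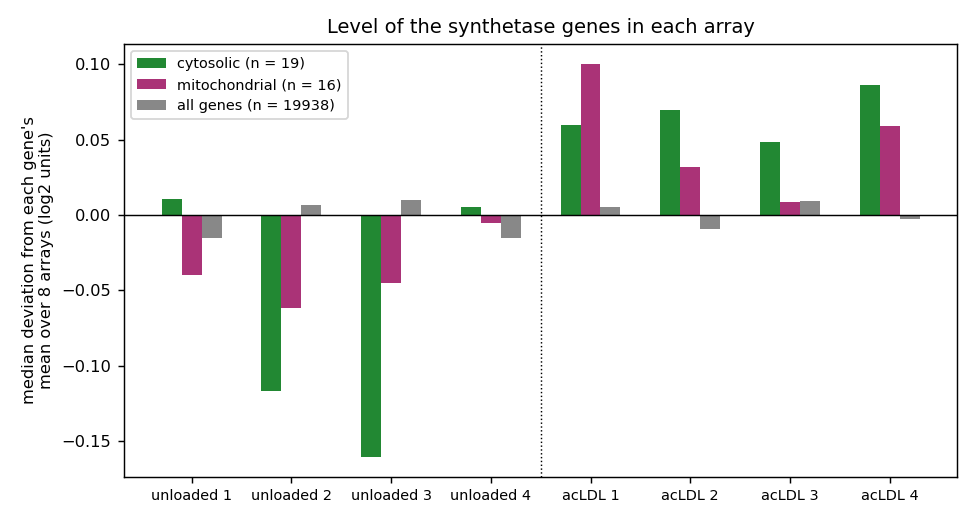
Median deviation of genes from their own mean over 8 arrays (log2 units) in each array, as bars for 19 cytosolic synthetases, 16 mitochondrial synthetases and all 19938 genes. Cytosolic bars are lowest in unloaded arrays 2 and 3 (-0.12 and -0.16), near 0 in unloaded arrays 1 and 4, and above 0 in the 4 acLDL arrays, while the bars of all genes stay near 0.

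Genes around tRNA charging were counted in 7 lists. Amino acid response genes had the highest share of rises. The list holds genes that GCN2 and ATF4 control and also parts of that pathway itself, such as Eif2ak4, Gcn1 and Atf4. Of 31 measured 14 rose, 2 fell and 15 did not pass, with a median log2 difference of 0.17. The share higher was 45.2%, against 12.9% of all genes. In each of the 18 alternatives 14 to 16 rose. The number that fell was 0 without unloaded array 4 or acLDL array 2, 3 or 4, 1 without acLDL array 1 or without unloaded arrays 1 and 4, 4 after quantile normalization, and 5 with the span trend removed or without unloaded arrays 2 and 3. The largest were Asns, which makes asparagine (8.73 ± 0.14 to 9.89 ± 0.07, SD, n = 4, 2.22-fold higher), and Mthfd2, of mitochondrial folate metabolism (7.95 ± 0.21 to 8.96 ± 0.06, 2.00-fold). Shmt2, which splits serine to glycine, and Gpt2, an alanine transaminase, were 1.58-fold and 1.55-fold higher. The limma adjusted p of these 4 genes was at most 9.54e-05. Atf4 itself, named here after its value was seen, did not pass (-0.15 ± 0.07 log2, SE, adjusted p = 0.183). Nor did the kinase gene Eif2ak4 that encodes GCN2 (adjusted p = 0.972) or Ddit3, which encodes CHOP (adjusted p = 0.929). From the same list, Gcn1, Atf5 and Cebpb rose by 0.22, 0.46 and 0.51 log2, and Cebpg and Atf3 differed by -0.24 and -0.19. The limma adjusted p of these genes that passed was at most 0.0330. Of 27 list genes with a promoter window 7 hold the motif above: Asns and Trib3, which rose, Atf3, which fell, and Chac1, Nupr1, Slc7a11 and Vldlr, which did not pass.

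Genes that modify tRNA bases went both ways, with 6 of 24 higher and 3 lower (median 0.08), or 25.0% higher against 12.9% of all genes. The number lower was 1 without unloaded array 4, acLDL array 2 or both unloaded arrays 1 and 4. With only genes above background tested, 6 of 23 genes of this list were higher and 4 lower. Of all 11609 genes in that setting 2609 were higher and 1868 lower. Mettl1, a tRNA guanine methyltransferase, was 1.47-fold higher, and Ctu2, Yrdc and Trmt61a, which also modify tRNA, were 1.34-fold, 1.32-fold and 1.32-fold higher. In tRNA processing, export and ligation 4 of 15 rose and 3 fell (median 0.12), or 26.7% higher against 12.9% of all genes. The rises were 2 without unloaded array 2, acLDL array 3, acLDL array 4 or both unloaded arrays 2 and 3. With only genes above background tested, 4 of 14 rose and 3 fell. Clp1, a kinase of RNA ends, fell by 0.40, Trnt1, which adds the CCA end that synthetases load, by 0.36 and Elac1 by 0.33 on the log2 scale. Pop5, of the ribonucleases that trim tRNA, passed as higher, but both its means lay below the background level and its difference is not given. Of the 9 genes of tRNA editing and selenocysteine 0 passed in limma, and 1 had an unadjusted p under 0.05.

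Of 19 genes of RNA polymerase III, which transcribes tRNA, 3 rose and 1 fell (median -0.04). With 15.8% higher and 21.1% changed, against 12.9% and 23.3% of all genes, this list was near the background. Without unloaded arrays 2 and 3, 2 rose and 3 fell. Gtf3a, Crcp and Gtf3c1 rose by 0.50, 0.40 and 0.18, and Brf1 fell by 0.32 on the log2 scale. Among 9 cytosolic elongation and termination factors 3 rose and 0 fell (median 0.15), or 33.3% higher: Eef1b2 by 0.33, Eif5a by 0.25 and Eef1d by 0.23. Without acLDL array 2, or without unloaded arrays 2 and 3, 1 of the 9 genes passed, and with probe sets averaged the median was 0.03. Of 19 charging partners and translation factors of mitochondria 2 rose and 0 fell (median 0.06), and the 10.5% higher lay below the 12.9% of all genes. Without unloaded arrays 1 and 4, 4 rose. The number that fell was 3 after quantile normalization, 2 with the span trend removed and 1 in 7 other alternatives. The 2 genes that rose were Tufm and Gatb, by 0.39 ± 0.08 and 0.34 ± 0.06 (log2, SE). Tufm brings charged tRNA to the mitochondrial ribosome. Gatb is a subunit of the amidotransferase that completes mitochondrial glutaminyl-tRNA after Ears2. The other subunit genes, Gatc and Qrsl1, differed by 0.05 and 0.12 and did not pass.

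**Figure D5:**
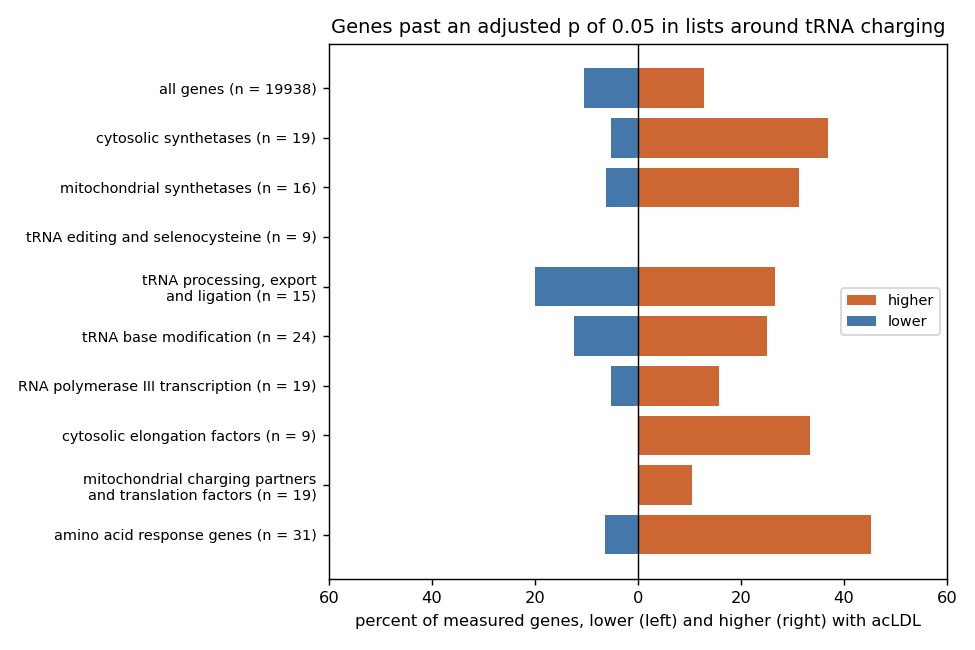
Percent of measured genes past an adjusted p of 0.05 that were higher (orange, right) or lower (blue, left) with acLDL, for all genes, both synthetase groups and 7 lists around tRNA charging, with the number of genes beside each name. Amino acid response genes and the cytosolic synthetases have the longest bars to the right, against 12.9% of all genes.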

How the data were processed

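The deposited table held log2 expression values of 35557 probe sets on 8 arrays, made with RMA per the submitters' processing notes; no source used here gives the release or options. RMA matches array distributions, which hides a change shared by all genes, and compresses differences of dim genes.

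Of 23410 annotated probe sets, 21789 had 1 gene symbol and 1621 several, and the other 12147 probe sets were unnamed. Symbols were checked by Entrez identifier against RefSeq (GRCm38.p6), which held 21698 of them and changed 0. Each gene was represented by its probe set with the highest mean over 8 arrays, which left 19938 genes. The members, lists and rules were chosen with earlier results of these data known.

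acLDL was compared with unloaded in limma 3.58.1 under R 4.3.3 (lmFit, eBayes, two-sided, all 8 arrays, no block), with Benjamini-Hochberg adjustment over all genes. Its recovery of known changes was tested on simulated data. Sets of members are described by counts and medians only. Genes named are all members and, in each list, up to 4 that passed with the largest change. Also named, after their values were seen, were Atf4, Eif2ak4, Ddit3, Gcn1, Atf5, Cebpb, Cebpg, Gatc, Qrsl1, Siglecf and the other genes with the motif. The markers Blk, Mmp8, Ly6g and Cma1 were named in the same way. Alternatives were leaving out each array, array weights, a replicate block, averaging a gene's probe sets, testing genes above background only, centring arrays on their medians, quantile normalization once more, and a prior that was robust and trended. Added after seeing the data were the removal of a span trend and leaving out unloaded arrays 1 and 4 or 2 and 3. The number of arrays limits precision, with a standard error of 0.074 for the median gene. Python 3.11.15 and matplotlib 3.10.9 made the figures.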

Additional observations from a re-analysis of the deposited data

Results flagged for a closer look

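Of 76 groups of 4 arrays (38 genes in unloaded and acLDL cells), 5 held an array far from the other 3, by Dixon's criterion at the 95% level; chance gives this in about 1 group in 20. Gars stood at 10.07 in acLDL array 1, against 9.90 to 9.93 in the others. Lars was at 8.42 in acLDL array 3, against 8.57 to 8.60. Hars2 was at 7.61 in acLDL array 4, against 7.77 to 7.79. Rars2 was at 7.16 in unloaded array 1, against 7.11 in the other 3, and Wars2 at 7.11 in unloaded array 2, against 6.89 to 6.93. The 5 values fell in 5 different arrays.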

How the results depend on the processing

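Over 18 alternatives, 6 of the 16 changed members passed in every one (Vars, Mars1, Gars, Yars, Yars2 and Eef1e1), 10 missed the threshold in at least 1, and 6 of the other 22 passed in at least 1; no called value changed sign, and the causes were not tested. The cytosolic count of 7 higher stayed within 1.5 times in every alternative, with 5 after median centring and 9 with a trended robust prior. Of all members 8 rose after median centring, the fewest of any alternative, against 14 in the main fit. Counts of cytosolic genes lower, reported as 1, were 2 on genes above background, after quantile normalization, with a trended robust prior and after removing the span trend, 3 without unloaded arrays 2 and 3, and 0 without 1 and 4. Mitochondrial genes higher, reported as 5, were 2 after quantile normalization and after median centring, and 3 with a trended robust prior and without either pair of unloaded arrays. The mitochondrial gene lower was lost (0) without unloaded arrays 2 and 3. Scaffold genes changed were 1 after median centring, after removing the span trend and without unloaded arrays 2 and 3. The cytosolic median of 0.14 was 0.21 without unloaded arrays 1 and 4 and 0.0592 without 2 and 3, and the mitochondrial median of 0.12 was 0.0709 after removing the span trend and 0.0747 without unloaded arrays 2 and 3. Leaving out 1 array gave 0 to 3 cytosolic genes lower, 2 to 4 mitochondrial genes higher and 1 to 2 scaffold genes changed. With the replicate block, 14 members rose and 4 fell, 3 of them cytosolic; equal numbers correlated by 0.11, -0.16, 0.30 and 0.14 in their deviations, so they were not taken as pairs.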
